A study of Mus musculus with 6 samples.

Results

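The VEGF and angiopoietin pathway genes described here are 7 receptor genes (Kdr, Flt1, Flt4, Nrp1, Nrp2, Tek and Tie1) and 3 ligand genes (Vegfa, Vegfc and Angpt1). They were taken from a given list, and their values were read from every probe set named for 1 of them alone: 24 of the 45037 probe sets on the array, 17 for receptors and 7 for ligands, so that 10 of 18193 named genes are covered. The RNA came from day 6 embryoid bodies, clusters grown from mouse embryonic stem cells that begin to form many cell types, here of the Hoxb4i (also iHoxB4) line, in which a tet-on cassette switches on HOXB4 when doxycycline is present. Embryoid bodies given doxycycline at 2 µg/ml for 48 hours from day 4 (with doxy) were compared with embryoid bodies that were not induced (w/o doxy); both carry the cassette. Each group holds 3 replicas, named A, B and C, and the description of each sample calls the letter an experiment, so that each experiment contributed 1 array with and 1 array w/o doxy. The seeding density was 3500 cells/ml, and 4.3 µg of total RNA was hybridized to the Affymetrix Mouse Genome 430 2.0 array. All arrays come from this single cell line, and embryoid bodies given doxycycline without the cassette are not among the 6 samples, so that HOXB4 and doxycycline itself cannot be told apart.

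VEGF ligands bind receptor tyrosine kinases on endothelial cells and their precursors: VEGFA acts on the receptors encoded by Kdr (VEGFR2, also FLK1) and Flt1 (VEGFR1), and VEGFC acts mainly on the receptor encoded by Flt4 (VEGFR3). The neuropilins NRP1 and NRP2 bind VEGF as co-receptors and also bind class 3 semaphorins, which guide axons, and they are made by neurons and mesenchyme as well as endothelium. Angiopoietins act on TEK (TIE2), with which TIE1, a related receptor without a well-defined ligand of its own, forms complexes. In differentiating embryonic stem cells, Kdr marks mesoderm that can give rise to blood, endothelium and heart, while Tek and Tie1 mark committed endothelium and some early blood cells.

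Values are the deposited MAS5 signals, linear and scaled by the authors to the same trimmed mean on every array. Differences are on the scale of log2(signal + 18.8), so they understate the change of dim probe sets, and signals of different probe sets are not compared with one another. The median signal of an array lay between 92.0 and 108.6. The array of experiment A w/o doxy stood apart: the 3' control probe set of Actb was 2.88 times as bright as the 5' one there, against 1.26 to 1.48 times on the other 5 arrays, and it gave the extreme value, high or low, for 53.8% of the tested probe sets (17.6% to 39.8% for the others). Hoxb4 itself had signals of 175.5, 116.4 and 129.5 with doxy in C, A and B, against 113.5, 46.5 and 119.8 w/o doxy on probe set 1451761_at. On 1460379_at they were 150.7, 136.3 and 261.4 with doxy, against 27.6, 78.2 and 253.0 w/o doxy. Both were higher with doxy in 3 of 3 experiments, by 0.10 and 0.04 log2 units in B, without passing the test (limma adjusted p = 1.00), and it is not stated whether they read the transcript of the cassette.

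The question of the study was what HOXB4 changes. By shares of the sum of squares, the signals of these genes differed more between the experiments than between embryoid bodies with and w/o doxy. Between 36.7% and 99.9% of the sum of squares of log2 signal of each tested probe set lay between experiments, and 0.0173% to 33.0% between embryoid bodies with and w/o doxy. Noise alone gives 3 experiments a larger share than 2 groups. Allowing for this, Vegfc 1439766_x_at (49.8% and 33.0%) and Vegfa 1451959_a_at (36.7% and 18.9%) did not differ more between experiments. The rest of the sum of squares is the change of the doxycycline difference from one experiment to the next. The experiments were therefore compared with one another by limma with doxycycline as a term (2 arrays per experiment, p adjusted over all 27022 tested probe sets). The error in this comparison is the spread of the difference between arrays with and w/o doxy from one experiment to the next. An F test over the 3 experiments called 7 of 7 receptors and 2 of 3 ligands (14.0% of all tested genes), and 14 of 17 receptor and 2 of 6 ligand probe sets (11.6% of all tested probe sets). No label says what differed between the experiments.

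Embryoid bodies of experiment C had lower receptor signals than those of experiment B for every receptor gene. By the brightest probe set of each gene, 7 of 7 receptors and 1 of 3 ligands were lower in C past an adjusted p of 0.05, and none was higher. Of all 12452 tested genes, 6.94% were called lower and 5.78% higher in C than in B. The median log2 difference, C minus B, was -3.33 over the receptors and -0.91 over the ligands, against 0.07 over all tested genes. With 3 ligands, their median is the value of Angpt1 alone. Over tested probe sets the medians were -2.09 for receptors and -0.17 for ligands. Counted by probe set, 12 of 17 receptor probe sets and 1 of 6 tested ligand probe sets were lower (5.26% of all tested probe sets) and none was higher (4.33%). These calls rest on few arrays: with the array of C with doxy or the array of B with doxy left out, only Tek and Nrp1 of the 7 receptors, and none of the ligands, were called, although all 7 receptors kept a lower value. Each of those fits leaves a single array in C or in B, and calls over all tested probe sets fell as well. With both arrays of A left out, 7 receptors and 2 ligands (Vegfa and Angpt1) were called, but so were 8179 of all 27022 tested probe sets. Fewer cells of a type and less RNA per cell cannot be told apart in such whole embryoid body samples.

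**Figure D1:**
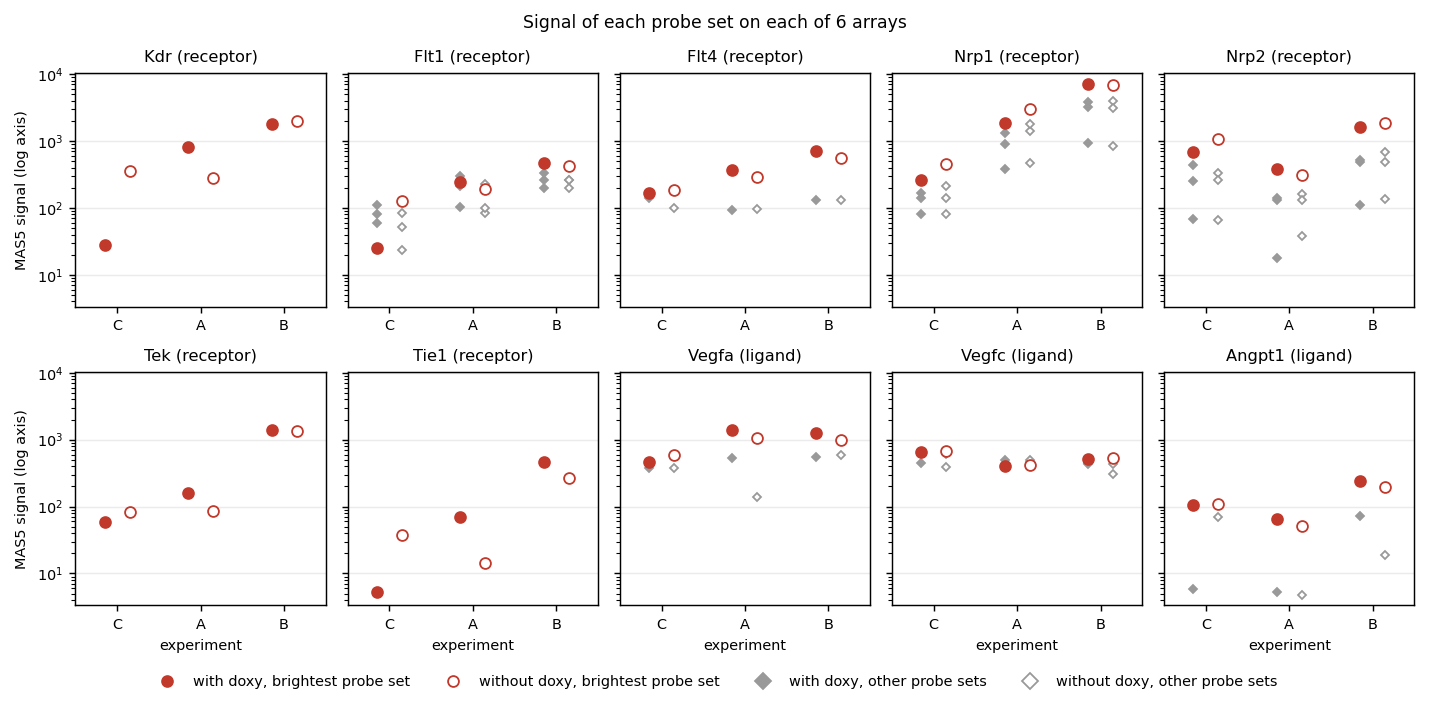
MAS5 signal (log axis) of every probe set of the 10 genes, by experiment C, A and B on the horizontal axis, with filled symbols for arrays with doxy and open symbols for arrays w/o doxy. Red circles are the probe set with the highest mean and grey diamonds the other probe sets; Tek, for example, reads 59.8 and 82.3 in C but 1399 and 1366 in B.

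Among the VEGF receptors, Kdr is the main signalling receptor for VEGFA. Its signal on 1449379_at, its single probe set, was 28.0 with and 354.0 w/o doxy in C, 824.2 with and 280.6 w/o doxy in A, and 1801 with and 1974 w/o doxy in B. Both arrays of B lay above the other 4, and the array of C with doxy was the lowest, at a signal so dim that its ratio to the others is only rough. C differed from B by -3.85 (95% confidence interval -5.78 to -1.92, limma adjusted p = 0.0265), a difference that was -2.01 without the array of C with doxy (adjusted p = 0.0512) and -3.54 without the array of B with doxy (0.0737). The difference of A from B, -1.92 (interval -3.86 to 0.01), did not pass (adjusted p = 0.211), and it was -3.45 without the array of A with doxy and -0.39 without the array of A w/o doxy, so that the place of A rests on which of its arrays is used.

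Flt1, whose product binds VEGFA tightly and exists as a membrane and a soluble form, has 4 probe sets. The brightest, 1451756_at, read 25.2 with and 126.3 w/o doxy in C, 240.3 with and 189.6 w/o doxy in A, and 471.3 with and 421.8 w/o doxy in B. C was lower than B by this probe set (-2.54, interval -3.69 to -1.39, limma adjusted p = 0.0173), by 1419300_at (-2.09, adjusted p = 0.00869) and by 1440926_at (-1.65, adjusted p = 0.0254), while 1454037_a_at stood at -1.36 (adjusted p = 0.0881). For A the probe sets disagreed. On 1419300_at, A and B were close (303.1 and 227.8 in A, 327.3 and 201.0 in B), and C, at 80.0 and 23.7, was lower than A (-2.12, adjusted p = 0.0175). On 1440926_at, in contrast, A at 103.5 and 85.1 was nearer to C, at 59.8 and 82.6, than to B, at 262.6 and 260.9 (with doxy first each time). The Flt1 transcripts that each probe set reads were not analysed here.

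Flt4, the VEGFC receptor of lymphatic and early blood vessel endothelium, read 167.9 with and 185.1 w/o doxy in C, 367.1 with and 291.3 w/o doxy in A, and 703.5 with and 564.7 w/o doxy in B on 1444052_at. The signal rose from C to A to B, and C was lower than B by -1.73 (interval -2.35 to -1.12, limma adjusted p = 0.00615). The dimmer probe set 1421442_at read between 92.3 and 138.8 on all 6 arrays and did not follow this order (C minus B -0.15, interval -0.98 to 0.69, adjusted p = 0.853).

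Nrp1, the co-receptor that enhances VEGFA signalling through KDR, was lower in C than in B on all 4 of its probe sets. Its brightest probe set, 1448943_at, read 258.0 with and 447.6 w/o doxy in C, 1876 with and 3037 w/o doxy in A, and 7154 with and 6959 w/o doxy in B. The order from lowest to highest was C, A, B on each of its 4 probe sets, which were read on the same arrays. C was lower than B by -4.30 (interval -4.84 to -3.76, limma adjusted p = 8.4e-05) and lower than A by -2.74 (interval -3.29 to -2.20, adjusted p = 0.00186), and A was lower than B by -1.56 (interval -2.10 to -1.01, adjusted p = 0.0157). The other 3 probe sets gave -4.35, -4.24 and -3.19 for C minus B, all called. By C minus B, 99.8% of the 12452 tested genes lay higher than Nrp1. Leaving out any 1 array, or both arrays of A, kept the value between -4.68 and -3.92 and the call.

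Nrp2, the other neuropilin and a partner of VEGFR3, followed a different order. On 1435349_at it read 675.0 with and 1058 w/o doxy in C, 377.3 with and 313.1 w/o doxy in A, and 1599 with and 1855 w/o doxy in B. Experiment A, not C, was lowest on each of the 4 probe sets, which were read on the same arrays. C was higher than A by 1.25 (interval 0.65 to 1.85, limma adjusted p = 0.034) and A was lower than B by -2.26 (interval -2.86 to -1.66, adjusted p = 0.00784). Without the array of A w/o doxy, which leaves a single array in A, these were 0.91 and -1.92. The call against C was lost without the array of C with doxy (1.58, limma adjusted p = 0.0747), without that of C w/o doxy (0.93, adjusted p = 0.319) and without the intensity trend (adjusted p = 0.106), and that against B without the array of B w/o doxy (-2.25, adjusted p = 0.0539) and without the trend (adjusted p = 0.0601). The difference of C from B, -1.01, had an adjusted p of 0.0496, was called on 1 of 4 probe sets and was lost under 9 of the alternatives tried. By brightest probe set, Nrp2 was the only receptor called higher in C than in A (2.77% of all tested genes were) and Nrp1 the only one called lower (4.64%); Flt1 1419300_at was called lower as well.

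The angiopoietin receptor Tek was high in B alone. Its probe set 1418788_at read 59.8 with and 82.3 w/o doxy in C, 157.3 with and 85.5 w/o doxy in A, and 1399 with and 1366 w/o doxy in B. C was lower than B by -3.97 (interval -4.76 to -3.19, limma adjusted p = 0.00042), and A was lower than B by -3.37 (interval -4.15 to -2.59, adjusted p = 0.00511). Between C and A the difference of -0.60 (interval -1.39 to 0.18) did not pass (adjusted p = 0.285); without the array of A w/o doxy it was -1.06 and was called, along with 3971 of all tested probe sets.

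Tie1, the partner of TEK, read 5.2 with and 38.1 w/o doxy in C, 68.7 with and 14.2 w/o doxy in A, and 460.7 with and 269.4 w/o doxy in B on 1416238_at. B again lay above the other 4 arrays, and C was lower than B by -3.33 (interval -4.81 to -1.85, limma adjusted p = 0.0159), or -2.17 (0.0633) without the array of C with doxy. A stood at -2.79 from B (interval -4.27 to -1.31, adjusted p = 0.0546). Tek and Tie1 had more similar profiles over the 6 arrays than most pairs of these 10 genes, with a root mean square difference of centred log2 signals of 0.47; Nrp2 with Angpt1 (0.35) and Flt4 with Vegfa (0.43) were closer still. Of 7 receptors, 3 (Tek, Nrp2 and Nrp1) were called lower in A than in B, and none higher, against 2.76% lower and 2.37% higher of all tested genes. Without the array of A w/o doxy 4 were called lower (Tie1 added), and without the array of A with doxy 7, among 2922 and 9262 called probe sets in all.

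By their brightest probe sets, Vegfa and Vegfc varied less than any receptor in the ratio of the highest to the lowest array. The third ligand, Angpt1, varied more than Flt4 by this measure, but less than the other receptors. Its difference of A from B was larger in size than those of Flt4, Flt1 and Nrp1, and smaller than those of Kdr, Nrp2, Tek and Tie1. Vegfa, the main VEGF of the early embryo and a target of hypoxia signalling, read 457.7 with and 582.8 w/o doxy in C, 1387 with and 1075 w/o doxy in A, and 1241 with and 1004 w/o doxy in B on 1420909_at. C lay below both other experiments: by -1.08 from B (interval -1.65 to -0.52, limma adjusted p = 0.0306) and by -1.21 from A (interval -1.78 to -0.65, adjusted p = 0.0314). Its second probe set, 1451959_a_at, gave -0.54 and 0.43 for these differences, with a low value of 138.6 on the array of A w/o doxy and 378.8 to 580.2 on the others. The call against B was lost without any 1 of the 4 arrays of B and C, with values of -1.42 to -0.75. The call against A was lost without the array of C with doxy (-0.88, limma adjusted p = 0.216) or w/o doxy (-1.55, adjusted p = 0.0801), and both calls without the intensity trend (adjusted p = 0.102 against A).

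Vegfc, the ligand of VEGFR3, was the member with the smallest range. Its brightest probe set, 1419417_at, read 645.8 with and 675.8 w/o doxy in C, 404.6 with and 419.0 w/o doxy in A, and 509.2 with and 532.7 w/o doxy in B. C differed from B by 0.33 (interval -0.19 to 0.85, limma adjusted p = 0.426), so that a difference as large as those of Tek or Nrp1 lies outside the interval. The other Vegfc probe sets gave 0.49 and 0.20 for this difference, and no difference between experiments was called on any of the 3.

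Angpt1, the ligand that activates TEK, read 104.5 with and 110.2 w/o doxy in C, 64.8 with and 50.5 w/o doxy in A, and 242.3 with and 196.4 w/o doxy in B on 1439066_at. Like Nrp2 it was lowest in A and highest in B. A was lower than B by -1.64 (interval -2.46 to -0.82, limma adjusted p = 0.0473), a call lost under 7 alternatives, and C stood at -0.91 from B (interval -1.73 to -0.09, adjusted p = 0.164). Its other probe set, 1421441_at, read 4.8 to 73.3 and was the only one of the 24 below the filter on dim probe sets.

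**Figure D2:**
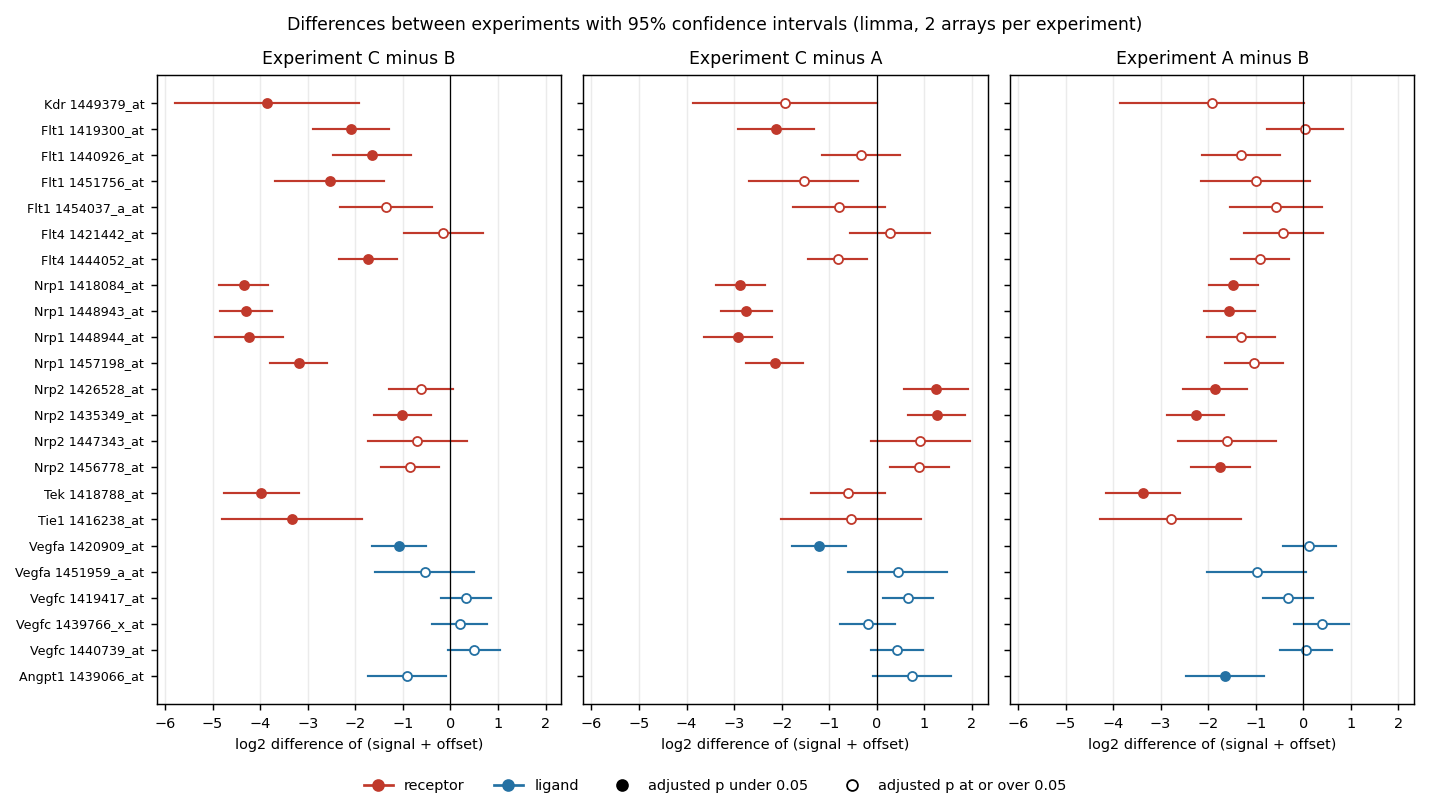
Log2 difference (horizontal axis) between experiments for each of the 23 tested probe sets (rows), C minus B on the left, C minus A in the middle and A minus B on the right; bars are 95% confidence intervals, filled points passed an adjusted p of 0.05. The 17 receptor probe sets (red) all lie left of 0 for C minus B, the 6 ligand probe sets (blue) between -1.08 and 0.49, and the Nrp2 probe sets lie right of 0 for C minus A.

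The 250 bases upstream of the RefSeq start site (GRCm38.p6) are shown for 2 receptor genes with unlike patterns, Tie1 and Nrp2, and for the ligand genes Vegfa and Vegfc, whose signals varied less. Capitals mark GGAA or its reverse complement TTCC, the core letters of the sites bound by ETS factors, a family known to control many endothelial genes; each sequence is given on the strand of its gene.
Tie1: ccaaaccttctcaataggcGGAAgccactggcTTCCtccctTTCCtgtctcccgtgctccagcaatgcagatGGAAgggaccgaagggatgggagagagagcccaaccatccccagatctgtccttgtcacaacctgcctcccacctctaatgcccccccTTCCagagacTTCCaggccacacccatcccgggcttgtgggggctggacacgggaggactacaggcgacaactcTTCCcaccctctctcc
Nrp2: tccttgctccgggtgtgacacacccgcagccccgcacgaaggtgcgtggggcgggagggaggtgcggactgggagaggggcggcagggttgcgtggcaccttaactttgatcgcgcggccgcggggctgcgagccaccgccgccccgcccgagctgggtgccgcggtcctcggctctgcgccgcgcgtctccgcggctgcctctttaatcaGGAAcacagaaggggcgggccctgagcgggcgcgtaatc
Vegfa: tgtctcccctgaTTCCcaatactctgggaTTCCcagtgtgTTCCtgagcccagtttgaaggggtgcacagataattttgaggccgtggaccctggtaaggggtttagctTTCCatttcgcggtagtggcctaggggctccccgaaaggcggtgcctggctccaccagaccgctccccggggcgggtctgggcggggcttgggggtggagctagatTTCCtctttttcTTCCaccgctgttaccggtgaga
Vegfc: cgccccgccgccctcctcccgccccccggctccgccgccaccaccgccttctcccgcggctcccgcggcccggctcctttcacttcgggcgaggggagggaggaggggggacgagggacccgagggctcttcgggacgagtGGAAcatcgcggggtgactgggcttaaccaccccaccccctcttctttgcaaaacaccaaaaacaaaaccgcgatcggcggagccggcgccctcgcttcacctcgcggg
They lie at chr4:118489850-118490099 (minus strand), chr1:62703067-62703316 (plus strand), chr17:46032378-46032627 (minus strand) and chr8:54077282-54077531 (plus strand). GGAA, counted on both strands, occurred 7 times in the Tie1 window, 1 time in that of Nrp2, 6 times in that of Vegfa and 1 time in that of Vegfc. The second RefSeq start of Vegfa, not printed, had 2 matches. At least 1 match is found in 93.4% of the 32851 RefSeq windows of this length, at least 6 in 8.69% and at least 7 in 3.82%. Among the other receptors, Kdr, Flt1 and Nrp1 had 4 matches each and Tek and Flt4 had 2 each, where the median over all windows was 3. GATAA, searched on both strands for GATA factors, was found in the printed Vegfa window alone, 1 time (0 at its second start), and in 22.6% of all windows. A match is a description of these letters, not a site.

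With doxycycline no receptor and no ligand passed the test. Of all tested probe sets 0% passed (0 of 27022, 138 of them with an unadjusted p under 0.05), and of the 23 member probe sets none had an unadjusted p under 0.05 (limma, smallest 0.27). With the experiment as a replicate block 0 passed as well, with 1065 probe sets in all and 2 member probe sets, Flt1 1419300_at (0.75, unadjusted p = 0.0295) and Nrp1 1448943_at (-0.47, unadjusted p = 0.0409), under an unadjusted 0.05. The mean signal of Kdr was 884 ± 888 with and 869.6 ± 957 w/o doxy (SD, n = 3 each), a log2 difference of -0.54 with an interval of -3.63 to 2.54. The interval was -2.85 to 3.14 for Tek, -3.47 to 2.54 for Nrp1 and -0.73 to 0.61 for Vegfc. With the replicate block the intervals were narrower: -2.12 to 1.04 for Kdr, -0.50 to 0.78 for Tek, -0.91 to -0.02 for Nrp1 and -0.48 to 0.37 for Vegfc.

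Within single experiments the receptors differed between arrays with and w/o doxy, but in unlike directions. These are differences between 2 arrays and have no test. By the brightest probe set of each gene, 7 of 7 receptors were lower with doxy in C, with a median of -0.75, where 47.2% of all tested genes were lower. In A, 6 of 7 were higher, with a median of 0.32, where 47.8% of all tested genes were higher. In B, 5 of 7 were higher, with a median of 0.04 (52.8% of all tested genes). Counted over all 17 receptor probe sets the directions were mixed: 11 were lower and 6 higher in C (median -0.13), and 9 were higher and 8 lower both in A (median 0.24) and in B (median 0.01). The array of A w/o doxy is the one that stood apart by its Actb control probe sets, and its part in the values of A was not tested.

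Kdr moved most: with doxy minus w/o doxy was -2.99 in C, 1.49 in A and -0.13 in B. In C this was the lowest value of all 12452 tested genes. Tie1 stood at -1.25 in C, 1.41 in A and 0.73 in B, and Tek at -0.36, 0.76 and 0.03. Flt1 stood at -1.72, 0.31 and 0.15 by its brightest probe set, while its probe set 1419300_at was higher with doxy in 3 of 3 experiments (1.22, 0.38 and 0.65). Nrp1 was lower with doxy in C (-0.75) and A (-0.69) and close to level in B (0.04), and Nrp2 stood at -0.63, 0.26 and -0.21, both by their brightest probe sets. Other probe sets of these genes differed in sign: Nrp1 1448944_at stood at 0.24 in C, and Nrp2 1426528_at at 0.40 in C and -0.18 in A. The ligands stayed between -0.34 and 0.36 in all 3 experiments by their brightest probe sets, and the second Vegfa probe set reached 1.82 in A.

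**Figure D3:**
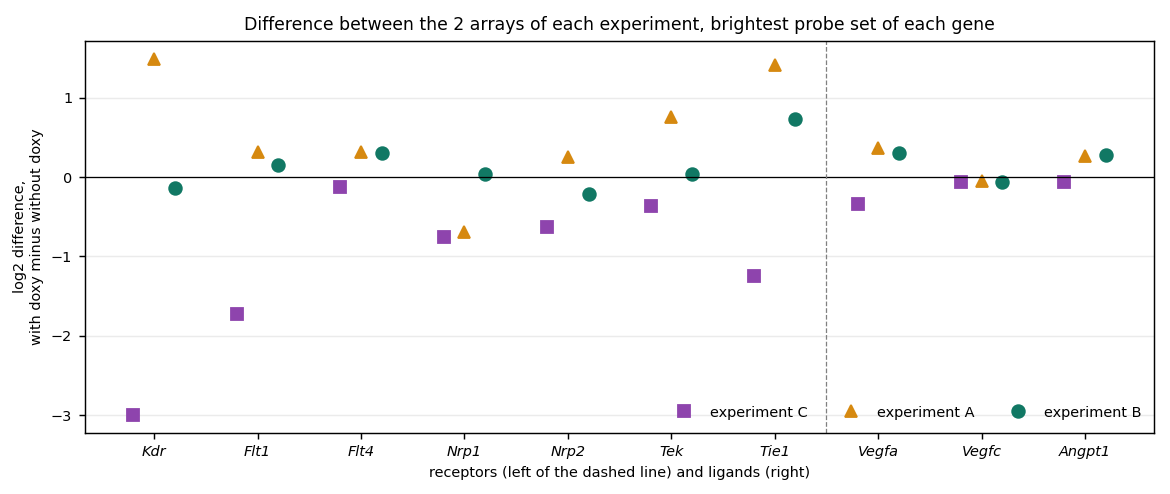
Log2 difference between the array with doxy and the array w/o doxy (vertical axis) for the brightest probe set of each gene (horizontal axis), squares for experiment C, triangles for A and circles for B. Kdr spans -2.99 to 1.49, while Vegfc stays at -0.06 to -0.05.

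Other ligands of these receptors moved in both directions. Of 9 tested ligand genes outside the members, 2 were called lower and 2 higher in C than in B, with a median of -0.00104. Of all tested genes, 6.94% were called lower and 5.78% higher. Pgf, the placental growth factor that binds FLT1, read 10.2 with and 16.5 w/o doxy in C, 292.7 with and 254.4 w/o doxy in A, and 653.3 with and 535.3 w/o doxy in B (C minus B -4.25, limma adjusted p = 0.000292). Angpt2, the context-dependent antagonist of ANGPT1, was also lower in C than in B (-2.11, adjusted p = 0.0416). The semaphorin genes Sema3c (4.63, adjusted p = 0.000131) and Sema3a (3.68, adjusted p = 0.00949), whose products bind neuropilins, were higher in C. Sema3c read 1141 with and 1164 w/o doxy in C, 429.5 with and 462.8 w/o doxy in A, and 19.7 with and 39.1 w/o doxy in B, the opposite order to Nrp1. Vegfb (0.29), Vegfd (-0.77), Angpt4 (-1.01), Sema3e (0.06) and Sema3f (-0.0010) did not pass.

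Of 33 tested genes for partners and signalling proteins of the receptors, 6 were called lower and 1 higher in C than in B, with a median of -0.04. The shares of all tested genes were 6.94% lower and 5.78% higher. Those with the smallest p between experiments were Cdh5, which encodes VE-cadherin (-2.56, adjusted p = 0.00229), Plxnd1, a semaphorin receptor of endothelium (-2.92, adjusted p = 0.00418), and Pxn, the adhesion adaptor paxillin (-1.37, adjusted p = 0.00363). With doxycycline none of the 33 passed (limma).

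Markers of endothelium moved with the receptors. Of 35 tested endothelial genes outside the members, 26 were called lower and none higher in C than in B, with a median of -2.13. Of all tested genes, 6.94% were called lower and 5.78% higher. In A against B, 17 were called lower and none higher (2.76% and 2.37% of all tested genes), with a median of -1.61. Mmrn2, an endothelial matrix protein gene, read 39.3 with and 58.6 w/o doxy in C, 83.0 with and 37.0 w/o doxy in A, and 1335 with and 1413 w/o doxy in B. Ecscr (-2.28) and the endothelial transcription factor gene Sox18 (-3.91) were likewise lower in C than in B. The defining markers Pecam1, Cdh5, Eng and Cldn5 were dimmer outside B, and without detection calls it cannot be said whether they were above background there. Pecam1 read 57.2 and 86.3 in C, 105.3 and 7.8 in A, and 819.3 and 690.1 in B, and Cdh5 79.3 and 65.3 in C, 127.3 and 81.0 in A, and 642.8 and 415.9 in B (with doxy first). In the same order Eng read 133.1 and 111.4 in C, 139.6 and 100.7 in A, and 370.6 and 364.0 in B. Cldn5 read 127.9 and 142.5 in C, 155.2 and 65.8 in A, and 501.9 and 603.9 in B. Summed over the 35 genes the signal was 5175 and 6007 in C, 15466 and 10251 in A, and 31565 and 26693 in B. Bright genes count most in such a sum. Gene by gene, C minus A had a median of -0.25, with 14 genes higher and 21 lower in C. Of the 35, 3 were called lower and none higher in C than in A, against 4.64% and 2.77% of all tested genes. The part of endothelial cell number in the receptor differences was not tested.

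Genes of other cell types in which some of these receptors are known to be made moved as well. The counts that follow are of genes called in C against B, where 6.94% of all tested genes were called lower and 5.78% higher. Of 16 cardiac genes 10 were lower in C than in B (median -2.40; Tnni1 -7.33), as were 11 of 21 endoderm genes, with 1 higher (median -1.68; Ttr -6.28), and 8 of 17 mesenchymal genes (median -1.33; Postn -5.35). Of 19 blood genes 4 were lower and 1 higher (median -0.79), the embryonic globin gene Hbb-bh1 standing at -4.55. Of 19 neural genes 15 were higher and none lower (median 2.99; Otx2 5.79). Among 22 hypoxia and glycolysis genes, the programme Vegfa belongs to, 5 were lower and none higher (median -0.20), including Epas1, which encodes HIF2A, at -3.38. Summed neural signal was 32970 and 32546 in C, 11219 and 14074 in A, and 2269 and 2628 in B, and summed cardiac signal 1411 and 1583 in C, 7556 and 6135 in A, and 16928 and 18666 in B, with doxy first. Their part in the differences of Nrp1, Nrp2, Kdr and Vegfa was not tested.

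**Figure D4:**
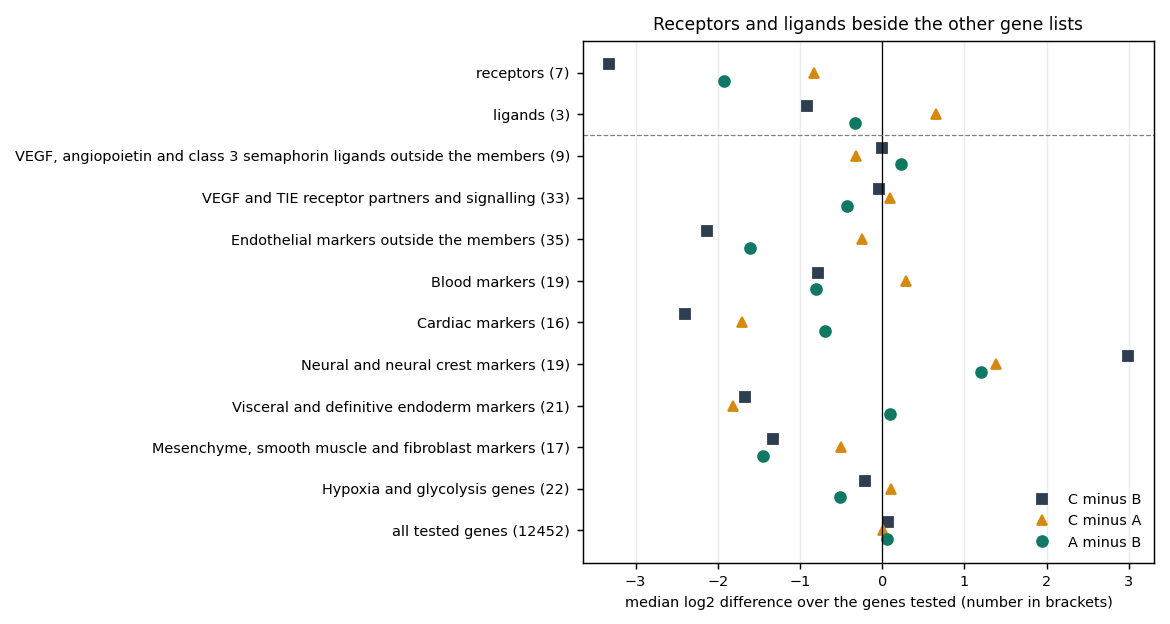
Median log2 difference (horizontal axis) over the tested genes of each list (rows, number of genes in brackets), squares for C minus B, triangles for C minus A and circles for A minus B. Receptors have a median of -3.33 for C minus B, endothelial markers -2.13, neural markers 2.99 and all tested genes 0.07.

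The genes with the most similar profiles were sought for Kdr, Nrp1 and Vegfa by the root mean square difference of log2 signals, each centred on its mean, over the 6 arrays and 12451 other genes. Closest to Kdr was Tal1, the transcription factor gene of early blood and endothelial specification, at 0.40 log2 units, where the median gene was at 1.89. Tal1 read 13.5 with and 106.2 w/o doxy in C, 459.5 with and 181.4 w/o doxy in A, and 1015 with and 729.7 w/o doxy in B. Car8, Pcolce, Prph and Vamp5 followed at 0.54 to 0.68. Like Kdr, all 5 genes were lowest on the array of C with doxy, where each read below the offset of 18.8. They were chosen for closeness on these arrays, so sharing that low value is not a separate result. Closest to Nrp1 were Cobll1 (0.24), Adgra2, which encodes the brain vessel receptor GPR124 (0.26), the cardiac troponin gene Tnnt2 (0.27), Smoc2 (0.29) and the ephrin gene Efna1 (0.33), with a median of 1.85 over all genes. Closest to Vegfa were Ptch1, which encodes the Hedgehog receptor (0.10), Tcf7l1 (0.13), Ctsc (0.14), Khk (0.15) and Slc16a1, a lactate transporter gene (0.15), with a median of 0.66. The 6 arrays share experiments in pairs, so these profiles rest mainly on 3 experiment levels.

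**Figure D5:**
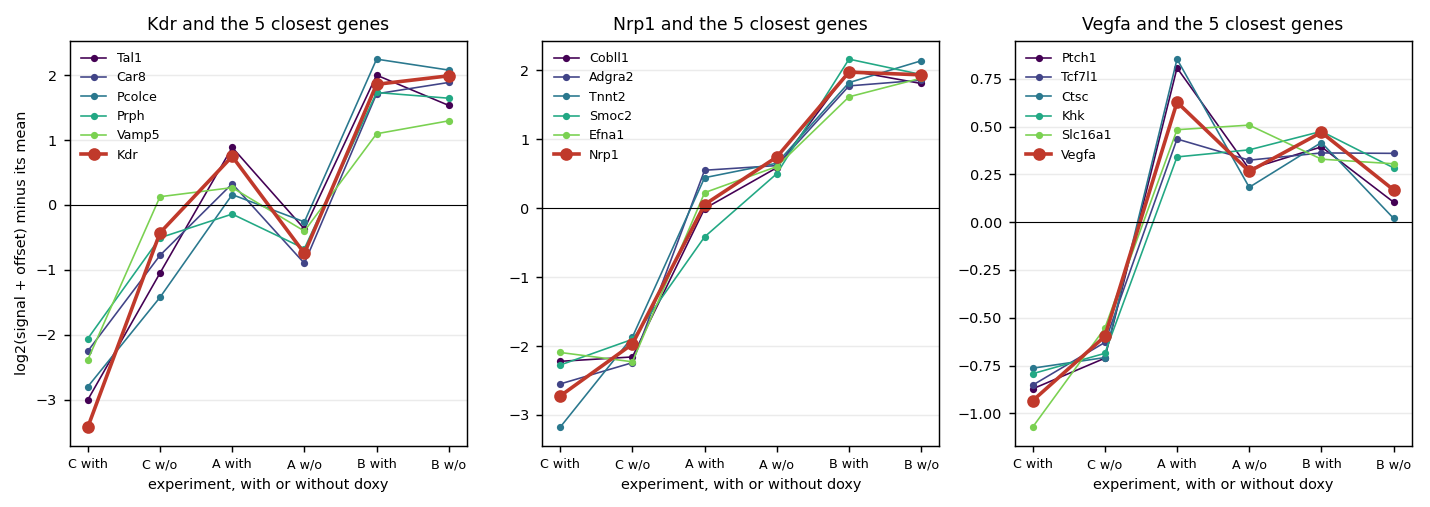
Log2(signal + offset) minus its mean over the arrays (vertical axis) on the 6 arrays (horizontal axis, with and w/o doxy in C, A and B) for Kdr, Nrp1 and Vegfa (thick red lines) and the 5 closest genes of each (thin lines). The Kdr panel shows the low array of C with doxy in all 5 genes, and the Vegfa panel the step between C and the other experiments. The genes were chosen for closeness on these arrays.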

How the data were processed

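Total RNA of 6 embryoid body samples was measured on 1 array each. The deposited values are linear intensity, a single MAS5 signal for each probe set, per the submitters' processing notes, which name no version. Once the top and bottom 2% are removed, each array averages 500, so they were used without renormalizing. Detection calls were not used here; precision is limited by the number of arrays. The labels do not say that replicas came from separate cultures, so p-values measure the spread between these samples, which may be technical.

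From the deposited intensity log2(signal + 18.8) was computed, 18.8 being the 20th percentile of all values. Of 45101 probe sets 64 controls were left out, and 27022 with a mean at or above the 40th percentile (60.5) were tested. Gene names are those of GEO's platform annotation, brought up to date by Entrez ID with RefSeq symbols (GRCm38.p6) (34741 of 34945 probe sets named for 1 gene). The 932 named for several genes and the 9160 unnamed stood for no gene. Those of them that passed the filter were kept in the fits, the adjustment and the counts of probe sets. A gene is represented by its tested probe set of highest mean.

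limma 3.58.1 in R 4.3.3 was run over all tested probe sets (empirical Bayes with intensity trend, Benjamini-Hochberg adjustment, threshold 0.05, two-sided): with doxy minus w/o doxy with no covariate, and the experiments with doxycycline as a term. The fits were tested on simulated data. Whether letters pair the arrays was checked: the labels name a shared experiment, and for the 2 arrays of a letter the deviations from group means had correlations of 0.45 to 0.67 over probe sets. Promoter sequences are RefSeq's; 9 of 10 genes matched, and the windows of Kdr, Flt1, Nrp1 and Tek are not printed because they overlap the RefSeq gene.

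Text names every member probe set, up to 3 genes of each list with the smallest p between experiments, the 5 genes closest to Kdr, Nrp1 and Vegfa, and Hoxb4. Pecam1, Eng, Cldn5, Angpt2, Angpt4, Vegfb, Vegfd, Sema3e and Sema3f were named after their values were seen. The members and lists were chosen with earlier results of these data known.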

Additional observations from a re-analysis of the deposited data

How the results depend on the processing

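Alternatives were an offset of 1 or 50, no filter or a stricter one, quantile normalization, no intensity trend, no doxycycline term or the experiment as a replicate block, another rule for several probe sets, and leaving out each array or both arrays of an experiment. Of 572 comparisons of single genes with an alternative, 476 kept direction and call, 42 lost the call, 22 gained it and 32 changed sign, each of the 32 with an array or an experiment left out; the cause was not tested. Without the intensity trend 3 receptors (Tek, Flt4 and Nrp1) were still called lower in C than in B, and 1 in A than in B (Tek). The replicate block alters the doxycycline fit alone. With it the doxycycline counts stayed 0 and 0, and no member was called.

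Counts of called probe sets fell without the intensity trend to 750 higher and 936 lower (C minus B), 49 and 125 (C minus A), 34 and 42 (A minus B) and 1186 (F test), against 1169 and 1422, 682 and 1160, 516 and 566, and 3138. Without a filter they were 355 and 734 (C minus A) and 319 higher (A minus B). With arrays left out they ranged from 411 to 4448 higher and 562 to 3759 lower (C minus B), 47 to 4573 and 217 to 5136 (C minus A), 80 to 5001 and 59 to 4261 (A minus B), and 1502 to 13806 (F test). The highest counts were all without an array of A, and the lowest all without an array of B or C; the cause was not tested. The receptor median, C minus B, ranged from -3.95 to -2.35 and the ligand median from -1.05 to -0.77 with an array left out. The ligand median was -1.0511 with quantile normalization, and for C minus A 0.43 over all probe sets of a gene.

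The doxycycline differences changed sign with the array left out. They ranged from -1.61 to 1.03 for Kdr, -1.15 to 0.59 for Flt1, -0.31 to 0.67 for Flt4, -1.57 to 0.78 for Nrp1, -0.90 to 0.35 for Nrp2, -1.05 to 1.39 for Tek, -0.83 to 1.33 for Tie1, -0.18 to 0.60 for Vegfa, -0.22 to 0.11 for Vegfc and -0.29 to 0.56 for Angpt1, none called. Their receptor median ranged from -1.05 to 0.78 and their ligand median from -0.22 to 0.25. Leaving out 1 array unbalances the experiments between the groups. Tie1, C minus A, ranged from -1.70 to 0.62 and Vegfa, A minus B, from -0.062 to 0.32. Dim probe sets without detection calls, as Tie1 in C, limit the size of the differences.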
